A study of Homo sapiens with 16 samples.

Results

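The comparison described here was between U-251 MG cells given simvastatin together with irinotecan and U-251 MG cells given irinotecan alone, 8 of the 16 libraries of the series. Its members were taken from the sample titles, 4 libraries titled as the combination and 4 as irinotecan, and every gene expressed in the series was tested. U-251 MG is an established human glioblastoma cell line, and the series was made to find genes and pathways affected by these drugs, with TGF-β named in its title. Poly(A) RNA was sequenced as read pairs after 48 h of treatment that began 24 h after seeding, in high-glucose DMEM with fetal bovine serum. The combination held simvastatin at 0.06 µM and irinotecan at 0.6 µM, and the irinotecan group held the same dose of irinotecan without the statin. The other 8 libraries were the DMSO vehicle group and a group with simvastatin at 0.06 µM alone, 4 of each, and they gave the same simvastatin step without irinotecan. The title of 1 library in each group carries no number, and it is named replicate 4 here. Whether libraries came from separate cultures is not in the labels, and the p-values measure the spread between these libraries, which may be technical.

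Simvastatin is a statin, which blocks the synthesis of mevalonate, the precursor of cholesterol and of the isoprenoid tails that anchor many signalling proteins in membranes. Cells short of sterol release SREBP2 from the endoplasmic reticulum (ER), and this factor switches on the genes of cholesterol synthesis. A shortage of amino acids or stress in the ER instead raises the translation of ATF4, which switches on genes for amino acid supply and redox balance in what is called the integrated stress response. Irinotecan is the prodrug of a topoisomerase I poison, which traps the enzyme on DNA and causes breaks during replication. Both statins and TGF-β are known to act on the actin cytoskeleton and the extracellular matrix.

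Library totals were 24375152 to 32318888 counts with irinotecan and 24159673 to 27502415 with the combination, and no pair of libraries within a group agreed to within counting noise. On the first principal component of these 8 libraries, which held 21.7% of their variance, the irinotecan libraries lay at -15.4 to -10.4 and the combination libraries at 6.57 to 19.7. The glioma markers GFAP, VIM, NES, CD44, SOX2 and SOX9 were present in both groups, whereas the mature astrocyte marker AQP4 was near 0. Markers of microglia and other immune cells were under 0.5 CPM (counts scaled to library size) for 8 of 10 genes. The share of counts from mitochondrial transcripts was 3.76% ± 0.39 with irinotecan and 3.03% ± 0.46 with the combination (SD, n = 4), a difference that did not pass a two-sided exact permutation test (p = 0.0857, adjusted over 13 such values 0.159, smallest possible 0.0286).

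Adding simvastatin to irinotecan changed many genes by a little. Of 16647 genes tested, 989 were called (5.94%) by edgeR's quasi-likelihood test, with p adjusted by the Benjamini-Hochberg method and a threshold of 0.05, and every adjusted p below is from that test. Higher with the combination were 740 genes (4.45% of all tested) and lower were 249 (1.5%). The median log2 fold change was 0.23 among the higher genes and -0.22 among the lower ones. Changes of at least 2-fold numbered 15 higher and 10 lower. The called higher genes were 74.8% of the calls, and they were 62.9% (594 higher, 351 lower) where libraries were scaled by their totals alone, which shifted the median of all genes by -0.018. Among all 16647 genes, the 4 combination libraries lay wholly above the 4 irinotecan libraries for 1334 (8.01%) and wholly below for 842 (5.06%). The number of lower genes depended on single libraries: it was 126, 145 and 156 without irinotecan replicates 1, 2 and 3, and 151, 136 and 137 without combination replicates 1, 2 and 3. In bulk RNA of this kind, fewer cells with a transcript and less of it per cell cannot be told apart.

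**Figure D1:**
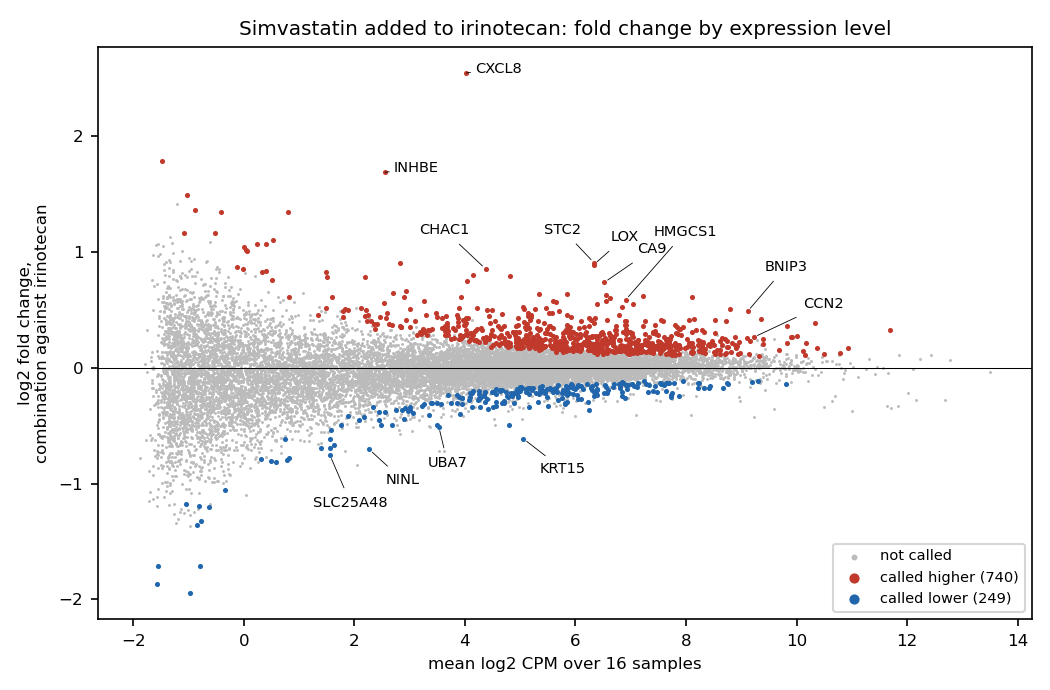
Log2 fold change of the combination against irinotecan (vertical axis) by mean log2 CPM over the 16 samples (horizontal axis), 1 point per gene, with the 740 called higher in red, the 249 called lower in blue and genes not called in grey. CXCL8 and INHBE stand above the other labelled genes, and most called genes lie close to 0.

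The 2 named genes that rose most both encode secreted signals. CXCL8 encodes interleukin-8, a chemokine that draws neutrophils and promotes vessel growth (chr4:73740506-73743716, plus strand, GENCODE 29 on GRCh38). Its level was 5.25, 4.83, 3.26 and 4.50 CPM in irinotecan replicates 1 to 4 and 27.0, 23.6, 27.9 and 25.6 CPM in combination replicates 1 to 4. All combination libraries were far above all irinotecan libraries, a fold of 5.83 and a log2 fold change of 2.54 ± 0.18 (standard error here and below, adjusted p = 3.05e-07). INHBE encodes the beta subunit of activin E, a member of the TGF-β superfamily (chr12:57452323-57459280). It was measured at 2.97, 3.11, 2.85 and 2.91 CPM with irinotecan and 10.2, 8.55, 8.04 and 11.4 CPM with the combination. The groups did not overlap and the fold was 3.22 (log2 1.69 ± 0.14, adjusted p = 8.5e-10). IL11, a cytokine of the interleukin-6 family induced by TGF-β, rose from 16.0, 15.4, 15.0 and 12.4 CPM to 26.5, 26.6, 23.0 and 26.3 CPM (chr19:55364389-55370463, log2 0.79 ± 0.08, adjusted p = 4.54e-07). Combination replicate 3 was lower than the other 3, which were almost equal, and was still above every irinotecan library. LIF, a cytokine of the same family, rose by 0.36 ± 0.06 and the stress cytokine GDF15 by 0.50 ± 0.09. In the list of chemokines and inflammatory cytokines 5 of 16 tested members rose, none fell, and the median log2 fold change was 0.09, against -0.0036 for all genes.

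The promoters of CXCL8 and IL11 are shown because both genes stood among the strongest rises and a short match to the AP-1 site lies in each window. They are RefSeq sequences on GRCh38.p14, from 250 bases before to 50 after the start, with matches in capitals. CXCL8 (chr4:73740319-73740618, plus strand) has the AP-1 letters TGANTCA 137 bases before its start and the NF-κB letters GGNNNTTCC 91 bases before it, and IL11 (chr19:55370414-55370713, minus strand) has the AP-1 letters 96 bases before its start.
CXCL8: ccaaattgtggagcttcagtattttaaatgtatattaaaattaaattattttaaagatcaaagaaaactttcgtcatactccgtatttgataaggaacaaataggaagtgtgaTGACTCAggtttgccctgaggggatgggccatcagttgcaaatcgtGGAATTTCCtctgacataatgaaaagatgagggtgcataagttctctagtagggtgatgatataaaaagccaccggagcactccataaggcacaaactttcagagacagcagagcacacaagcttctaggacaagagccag
IL11: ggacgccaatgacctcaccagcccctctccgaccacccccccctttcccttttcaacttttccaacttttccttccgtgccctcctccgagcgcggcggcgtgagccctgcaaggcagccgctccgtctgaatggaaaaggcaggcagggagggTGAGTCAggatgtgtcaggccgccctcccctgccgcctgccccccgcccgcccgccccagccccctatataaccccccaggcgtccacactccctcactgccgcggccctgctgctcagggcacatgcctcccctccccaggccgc
Searched on both strands, TGANTCA occurred in 7.71% of the 35116 promoters in the table and in 3 of the 12 members of this list with a promoter there (2 of 4 called and 1 of 8 not called). GGNNNTTCC occurred in 20.1% and in 6 of 12 (1 of 4 called and 5 of 8 not called). For list members, here and below, only the first promoter given for each symbol was searched, so other starts of a gene were not. The share of all promoters counts every promoter. A match describes the letters and does not show that a factor binds.

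Many targets of ATF4 rose. Of the list of integrated stress response genes, 21 of 30 rose and none fell, and the median log2 fold change was 0.35, with a positive value in all 30. For 23 of them the combination libraries lay wholly above the irinotecan libraries, as they did for 8.01% of all genes. ATF4 itself, the transcription factor that drives the list, went from 306, 308, 288 and 288 CPM to 351, 341, 345 and 345 CPM (chr22:39519695-39522685, 0.22 ± 0.04, adjusted p = 0.000649). STC2, a secreted glycoprotein that limits calcium entry under stress, was at 43.7, 43.0, 44.3 and 46.7 CPM with irinotecan and 90.9, 76.5, 79.25 and 86.3 CPM with the combination (chr5:173314713-173329503). No library of one group came near the other, and the log2 fold change was 0.91 ± 0.05 (adjusted p = 1.36e-12). CHAC1, an enzyme that breaks down glutathione, was at 14.6, 15.3, 13.9 and 12.7 CPM without the statin and 27.8, 25.6, 24.0 and 24.97 CPM with it (chr15:40952962-40956519, 0.85 ± 0.08, adjusted p = 3.97e-08). SESN2, a brake on the growth kinase mTORC1, rose by 0.46 ± 0.06, and ATF3, a stress-induced transcription factor, by 0.36 ± 0.07, with combination replicate 4 above its 3 fellows. DDIT4, a further inhibitor of mTORC1, went from 45.3, 38.8, 43.7 and 42.5 to 54.7, 50.1, 51.0 and 55.5 CPM (chr10:72273920-72276036, 0.31 ± 0.06, adjusted p = 0.000497). Asparagine synthetase, ASNS, a well known target of ATF4, had means of 0.656 and 0.801 CPM and was not called (0.27 ± 0.31, adjusted p = 0.697).

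The letters TGATGNAA, the core of the site that ATF4 binds with a C/EBP partner, occurred in 3.62% of promoters. They occurred in 5 of the 24 list members with a promoter in the table, 3 of 15 called and 2 of 9 not called. Of lists described below, the SREBP site letters TCACNCCAC occurred in 1 of 19 SREBP2 targets, 0 of 6 called and 1 of 13 not called (1.13% of promoters). The unfolded protein response letters TGACGTGG occurred in 1 of 24 ER chaperone list members, 1 of 11 called and 0 of 13 not called (0.729% of promoters). The windows of CHAC1 (chr15:40953221-40953520, plus strand, match 209 bases before the start) and ATF3 (chr1:212565157-212565456, plus strand, 191 bases before) are shown as called members named above.
CHAC1: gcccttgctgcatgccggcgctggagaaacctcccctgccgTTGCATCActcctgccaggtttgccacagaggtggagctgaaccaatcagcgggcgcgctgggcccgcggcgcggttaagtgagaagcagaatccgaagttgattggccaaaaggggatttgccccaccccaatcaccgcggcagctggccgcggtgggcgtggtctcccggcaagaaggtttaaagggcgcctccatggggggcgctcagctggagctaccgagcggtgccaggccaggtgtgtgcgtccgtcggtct
ATF3: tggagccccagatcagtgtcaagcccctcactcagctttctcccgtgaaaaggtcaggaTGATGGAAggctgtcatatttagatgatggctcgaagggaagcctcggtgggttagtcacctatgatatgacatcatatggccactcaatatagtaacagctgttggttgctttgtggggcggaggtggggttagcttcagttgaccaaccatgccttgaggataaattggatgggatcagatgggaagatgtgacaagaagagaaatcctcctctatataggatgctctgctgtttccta

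Genes that supply amino acids and one-carbon units rose with them. Of the list of amino acid carriers and folate enzymes, 19 of 24 rose and none fell, with a median of 0.28. ALDH1L2, a mitochondrial folate enzyme, was at 4.20, 5.59, 6.01 and 4.86 CPM with irinotecan and 10.9, 10.0, 9.95 and 7.86 CPM with the combination (chr12:105019784-105084577, 0.90 ± 0.12, adjusted p = 2.74e-06). CTH, which makes cysteine from cystathionine, rose from 11.7, 11.2, 12.4 and 13.4 to 21.9, 18.4, 21.85 and 19.8 CPM (0.75 ± 0.08, adjusted p = 5.03e-08). In both genes the lowest combination library was above the highest irinotecan library. The cystine carrier SLC7A11 rose by 0.62 ± 0.06, the serine synthesis enzyme PSAT1 by 0.35, the folate enzyme MTHFD2 by 0.37 and the alanine transaminase GPT2 by 0.38. Cytosolic aminoacyl-tRNA synthetases, which load amino acids on tRNA, rose in 9 of 20 cases with none lower and a median of 0.13. GARS1 (0.41), IARS1 (0.31), WARS1 (0.29) and EPRS1 (0.22) were the called members with the smallest p. Of 17 NRF2 targets, genes of the oxidant response, 2 rose (11.8% beside 4.45% of all genes). They were SLC7A11 and the thioredoxin reductase TXNRD1 (0.25), and the list's median was 0.03.

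The secretory pathway had 29 of 38 members called higher and none lower, with a median of 0.23. COPII is the coat that buds vesicles from the ER, and KDEL receptors return escaped ER proteins from the Golgi. SEC24D, a cargo adaptor of the coat, was at 67.4, 67.9, 73.2 and 70.9 CPM with irinotecan and 107, 99.7, 109 and 100.1 CPM with the combination (chr4:118722823-118838683, 0.57 ± 0.04, adjusted p = 1.17e-10). ARF4, a small GTPase of the Golgi, was at 233, 216, 213 and 213 CPM without the statin and 343.5, 323, 340.3 and 330.2 CPM with it (chr3:57571363-57598220, 0.61 ± 0.04, adjusted p = 7.65e-11). The KDEL receptor KDELR3 was at 37.9, 35.5, 36.8 and 35.5 CPM without the statin and 58.3, 54.96, 55.4 and 57.9 CPM with it (0.64 ± 0.05, adjusted p = 1.69e-09). For these 3 genes the spread within a group was small beside the gap between groups. SEC31A, the outer coat subunit, rose by 0.41. Among ER chaperones and genes of the unfolded protein response, 12 of 26 rose and none fell, with a median of 0.14. HERPUD1, a part of ER-associated degradation, went from 69.0, 69.3, 64.5 and 69.2 to 109, 102, 105 and 105 CPM (chr16:56932048-56944863, 0.63 ± 0.05, adjusted p = 6.64e-11). The chaperone HSPA5, also called BiP, went from 1033.5, 1047, 1022 and 966 to 1387, 1309, 1291 and 1331 CPM (0.39 ± 0.04), and EIF2AK3, the ER stress sensor PERK, rose by 0.47. Neither gene's groups overlapped. Of 18 heat shock proteins, chaperones mostly of the cytosol, 0 were called by edgeR and 0 by DESeq2, with a median of 0.00 (0 higher and 0 lower at an unadjusted p under 0.05).

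**Figure D2:**
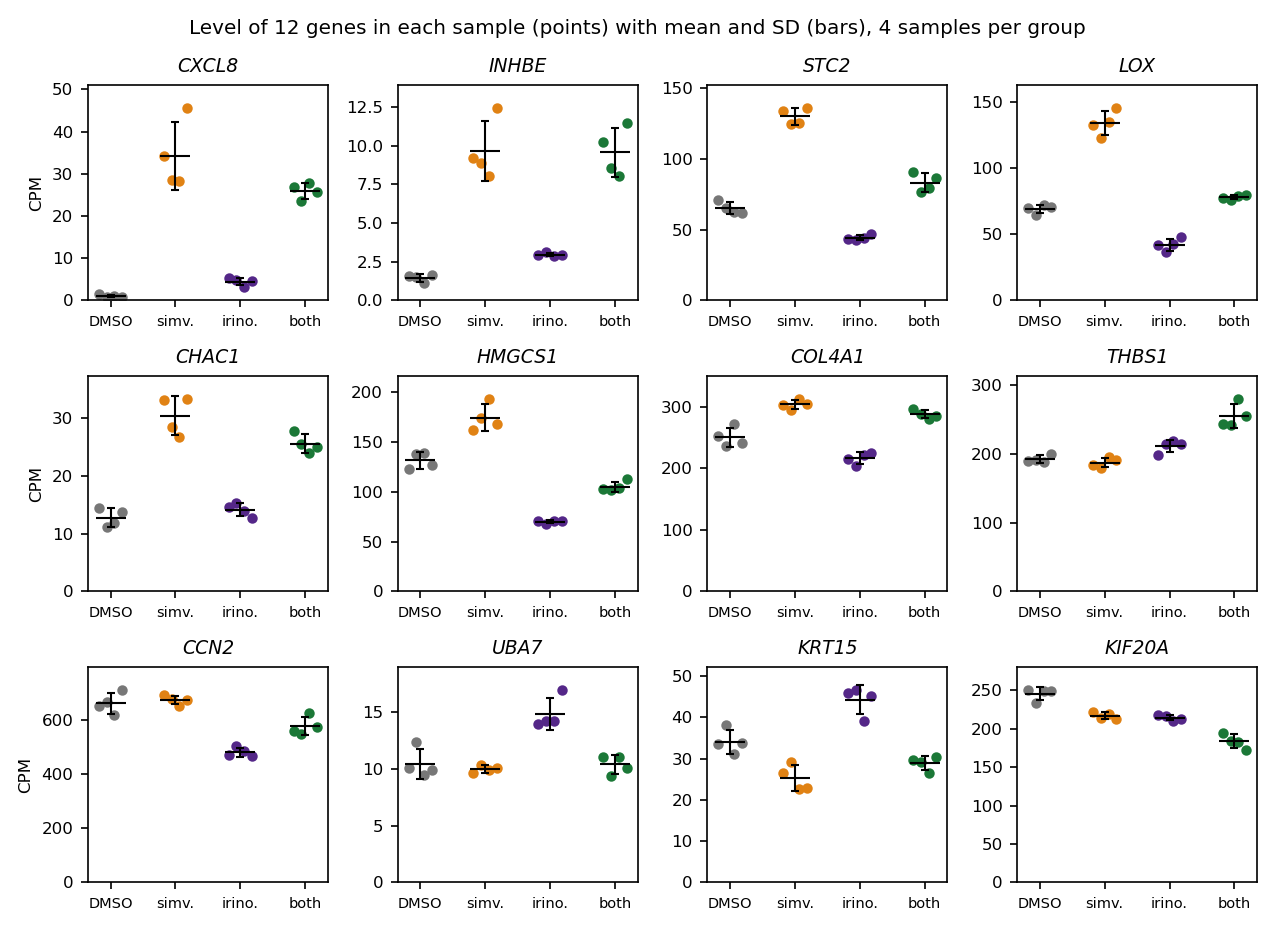
Levels of 12 genes in CPM (vertical axes, from 0) in each of the 4 groups (DMSO, simvastatin, irinotecan and both drugs), with 1 point per sample and bars for the mean and SD of 4 samples. For 9 of the 12 genes the samples with both drugs lie above those with irinotecan alone, and for UBA7, KRT15 and KIF20A they lie below.

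Genes of cholesterol synthesis under SREBP2 rose in 10 of 26 cases, with none lower and a median of 0.13. HMGCS1, the synthase of HMG-CoA in the mevalonate pathway, was at 71.1, 68.1, 70.3 and 70.7 CPM with irinotecan and 103, 102, 103 and 113 CPM with the combination (chr5:43289395-43313512, 0.59 ± 0.05, adjusted p = 3.06e-09). Combination replicate 4 was the highest and all 4 were above the irinotecan libraries. SQLE, which makes squalene epoxide, was at 52.2, 47.6, 47.6 and 51.9 CPM without the statin and 64.3, 65.4, 66.3 and 66.6 CPM with it (0.40 ± 0.04). INSIG1, a brake on SREBP processing, was at 173, 168, 167 and 176 CPM without the statin and 215, 219, 214 and 215 CPM with it (0.34 ± 0.04), and the sterol demethylase MSMO1 rose by 0.32 ± 0.04. With both drugs the mean levels of these 4 genes lay between those of irinotecan and DMSO. The means with irinotecan, the combination, DMSO and simvastatin were 70.04, 105, 131 and 174 CPM for HMGCS1. For INSIG1 they were 171, 216, 266 and 301 CPM. SREBP1 targets of fatty acid synthesis rose in 3 of 13 cases (23.1% beside 4.45% of all genes, median 0.08), led by the stearoyl-CoA desaturase SCD (0.17 ± 0.04). The count was 1 without irinotecan replicate 1, 2 or 3 or combination replicate 1. By edgeR 0 of the 11 sterol efflux and LXR targets were called (DESeq2 called 1 lower, and 1 higher and 3 lower had an unadjusted p under 0.05). The statin-responsive factor KLF2 (0.21 ± 0.08, adjusted p = 0.115) was not called.

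Hypoxia targets rose in 14 of 22 cases with none lower and a median of 0.24, and glycolytic enzymes in 6 of 20 with a median of 0.11. CA9, a carbonic anhydrase of the cell surface, was at 49.6, 38.6, 42.7 and 43.5 CPM with irinotecan and 79.8, 68.5, 64.9 and 77.3 CPM with the combination (chr9:35673856-35681159, 0.74 ± 0.09, adjusted p = 9.4e-05). BNIP3, a mitophagy receptor, was at 367, 344, 336 and 387 CPM without the statin and 526, 474, 494 and 514 CPM with it (0.49 ± 0.04, adjusted p = 1.54e-09). The glycolytic kinase PGK1 was at 2433, 2222, 2313.5 and 2330.4 CPM without the statin and 3028, 2809.5, 2875 and 2951 CPM with it (0.33 ± 0.03). In all 3 genes the combination libraries stood clear of the irinotecan libraries. Irinotecan against DMSO, which shares the irinotecan libraries with this comparison, gave log2 fold changes of -1.23 for CA9, -0.68 for BNIP3, -0.72 for LOX and -0.91 for HMGCS1. Other risers had positive values there, 2.09 for CXCL8, 1.02 for INHBE and 1.45 for GDF15. List medians there were -0.43 for hypoxia targets, -0.25 for SREBP2 targets and 0.08 for ATF4 targets. The means with both drugs were below those with DMSO for CA9 (72.6 against 102 CPM) and BNIP3 (502 against 575 CPM).

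TGF-β signals through type I and type II receptors that phosphorylate SMAD2 and SMAD3, and in glioblastoma it is known for driving matrix production and invasion. The ligands and receptors themselves were not called: log2 fold changes were 0.05 ± 0.04 for TGFB1 (adjusted p = 0.619), -0.04 ± 0.07 for TGFB2 (0.81), 0.01 ± 0.05 for TGFBR1 (0.967) and 0.11 ± 0.04 for TGFBR2 (0.122). The value of TGFB2 turned positive without irinotecan replicate 4, and that of TGFBR1 turned negative without irinotecan replicate 2 or combination replicate 1 and under scaling by library totals alone. Of 25 ligands, receptors and latency proteins 4 rose and none fell: INHBE, the activin antagonist FSTL3 (0.44 ± 0.09), the latency protein LTBP2 (0.23 ± 0.06) and THBS1, a matrix protein that activates latent TGF-β. THBS1 was at 198, 214, 218 and 215 CPM with irinotecan and 243, 242, 279.8 and 254 CPM with the combination (chr15:39581079-39599466, 0.27 ± 0.04, adjusted p = 5.9e-05). Its combination libraries were all higher than its irinotecan libraries, with replicate 3 the highest. Among 19 SMADs and their regulators 1 rose, a share of 5.26% beside 4.45% of all genes. It was the SMAD inhibitor PMEPA1 (0.11 ± 0.03, adjusted p = 0.0423). The call of PMEPA1 was lost under scaling by library totals and without simvastatin replicate 1 or 2. It was also lost without any 1 irinotecan library and without combination replicate 1, 2 or 4. LTBP2 lost its call without irinotecan replicate 1 or 4 or combination replicate 4. SMAD3 (-0.07 ± 0.04, adjusted p = 0.332) and SMAD7 (0.78 ± 0.28, adjusted p = 0.0991, mean 0.661 to 1.13 CPM) were not called. Of the BMP pathway the antagonist NOG alone among 18 members was called, a share of 5.56% beside 4.45% of all genes. NOG was at 49.1, 47.6, 47.9 and 40.9 CPM with irinotecan and 71.4, 69.6, 63.1 and 72.1 CPM with the combination (0.57 ± 0.06, adjusted p = 2.13e-07).

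The list of genes that respond to TGF-β held more calls. Of 30 response genes, 14 rose and none fell, with a median of 0.14. For 16 the combination libraries lay wholly above the irinotecan libraries, as they did for 8.01% of all genes. With 1 library left out, 10 (without combination replicate 4) to 14 were called, and 8 in the 12 numbered libraries alone. CCN2, a matricellular growth factor also called CTGF, was at 469.9, 503, 485 and 466 CPM with irinotecan and 558, 549.8, 626 and 574 CPM with the combination (chr6:131948176-131951373, 0.26 ± 0.04, adjusted p = 6.52e-05). LOX, the amine oxidase that crosslinks collagen and elastin, was at 42.0, 36.4, 42.6 and 47.6 CPM without the statin and 77.5, 75.8, 79.1 and 79.6 CPM with it (chr5:122063195-122078360, 0.89 ± 0.06, adjusted p = 1.17e-10). COL4A1, a collagen of basement membranes, was at 216, 204, 222.5 and 226 CPM without the statin and 297, 289, 280.4 and 285 CPM with it (chr13:110148963-110307233, 0.41 ± 0.04, adjusted p = 3e-08). The lowest combination library was above the highest irinotecan library for each of the 3. TGFBI (0.15) and the actin-binding TPM1 (0.16) rose as well, and the myofibroblast actin ACTA2 was not called (means of 1.25 and 0.839 CPM, -0.57 ± 0.24, adjusted p = 0.185).

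Matrix genes beyond that list rose too. Collagens, laminins and matrix glycoproteins rose in 10 of 35 cases and none fell (median 0.10), with COL5A1 (0.26) and COL8A1 (0.21) among those called. Collagen processing and crosslinking enzymes rose in 8 and fell in 2 of 17, with the prolyl hydroxylase subunits P4HA1 and P4HA2 both at 0.36. The 2 that fell, named after their values were seen, were the procollagen protease ADAMTS14 (-0.34 ± 0.07) and the lysyl oxidase-like LOXL1 (-0.14 ± 0.04), and 1 of the 17 fell without irinotecan replicate 1 or 3 or combination replicate 2 or 4. Matrix proteases and inhibitors rose in 8 of 21 cases, among them the urokinase PLAU (0.33), its receptor PLAUR (0.24) and the serpin SERPINE2 (0.21). Of 16 integrins 0 were called higher by edgeR and ITGB4 fell (-0.14 ± 0.03), while DESeq2 called 4 higher, edgeR called 4 higher without simvastatin replicate 3, and 8 were higher at an unadjusted p under 0.05. YAP and TEAD targets rose in 7 of 28 cases, with a median of 0.06. CCN2, the receptor kinase AXL, and NT5E and F3, described below, were among them. Actin and SRF targets rose in 2 of 25, a share of 8% beside 4.45% of all genes. The count was 1 without simvastatin replicate 1, irinotecan replicate 1, 2 or 3 or combination replicate 1, 3 or 4. The summed level of 6 fibroblast and pericyte markers moved with the collagens, from 37.8 to 42.2 CPM per library with irinotecan and from 45.6 to 50.4 with the combination, with exact permutation p = 0.0286, the smallest possible, and 0.124 adjusted over 13 values. That sum was mostly COL1A1, and the defining markers DCN and LUM were near 0. Its part in the result was not tested.

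**Figure D3:**
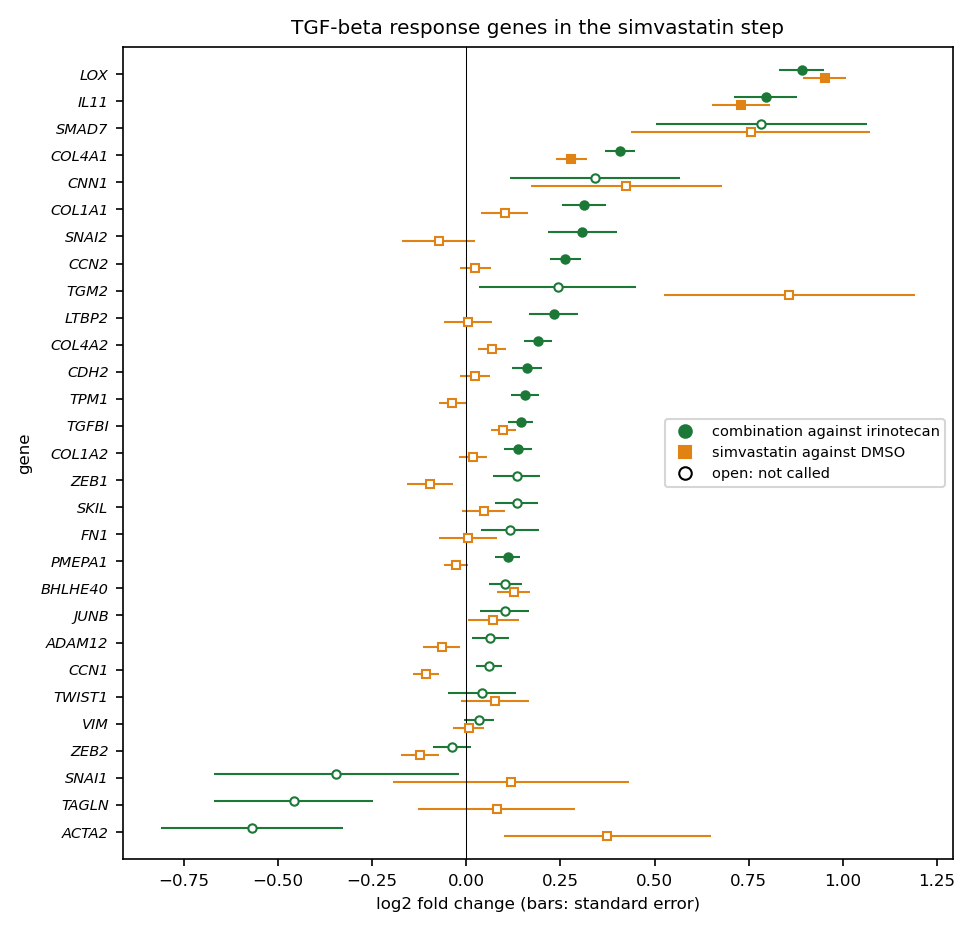
Log2 fold change with its standard error (horizontal axis) for 29 of the 30 TGF-β response genes (vertical axis), with irinotecan (green circles) and without it (orange squares), filled where called. LOX, IL11 and COL4A1 are filled in both colours, while CCN2, COL1A1 and LTBP2 are filled in green and open in orange.

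Surface and signalling genes rose as well, of which NT5E and F3 belong to the YAP and TEAD list above. NT5E, the ecto-nucleotidase CD73 that makes adenosine, was at 9.80, 11.8, 12.6 and 11.4 CPM with irinotecan and 19.8, 18.9, 21.9 and 18.9 CPM with the combination (chr6:85449584-85495791, 0.80 ± 0.08, adjusted p = 3.37e-08). F3, the tissue factor that starts blood clotting, was at 44.8, 59.6, 46.0 and 51.0 CPM without the statin and 70.1, 74.2, 90.2 and 79.3 CPM with it (0.64 ± 0.09, adjusted p = 0.000471). The potassium channel gene KCNK6 was at 3.55, 2.05, 2.74 and 2.39 CPM without the statin and 4.22, 5.00, 4.29 and 4.97 CPM with it (0.79 ± 0.14), and MAGEH1, a melanoma antigen family gene, at 1.63, 2.21, 1.98 and 2.07 CPM without the statin and 3.84, 3.07, 3.03 and 4.07 CPM with it (0.82 ± 0.15). None of these 4 overlapped between groups, though KCNK6 and MAGEH1 were at a few CPM. The EGF receptor ligand HBEGF rose by 0.56 ± 0.10 and the early response gene IER3 by 0.51 ± 0.06. Of 21 genes of ERK feedback 6 rose, with DUSP5 (0.37 ± 0.06) and the sprouty SPRY4 (0.22 ± 0.04) among them, and of 21 immediate early genes 5 rose (3 without irinotecan replicate 1, 2 or 3 or combination replicate 3), and none of either list fell.

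Fewer genes fell, among them genes of cell division. Of 40 genes of G2/M and mitosis 13 fell and none rose, the median was -0.09, and 40 of 40 values were negative. KIF20A, a kinesin of cytokinesis, was at 218, 216.5, 211 and 212 CPM with irinotecan and 195, 184, 183 and 173 CPM with the combination (chr5:138178719-138187715, -0.22 ± 0.04, adjusted p = 0.000136). CDC25B, a phosphatase that triggers mitosis, was at 184, 186, 177 and 185 CPM without the statin and 158, 157, 156 and 161 CPM with it (-0.21 ± 0.03, adjusted p = 9.83e-05). Both had groups that did not overlap, and CENPA, the centromere histone, fell by 0.22 on the log2 scale. The proliferation marker MKI67 was not called (-0.04 ± 0.10, adjusted p = 0.894), and its sign turned without irinotecan replicate 3 or 4 or combination replicate 4. The count of 13 was 6, 7 and 8 without irinotecan replicates 1, 2 and 3, 8, 6 and 4 without combination replicates 2, 3 and 4, and 2 in the 12 numbered libraries alone. Replication and E2F targets fell in 4 of 38 cases, a share of 10.5% beside 1.5% of all genes. The count was 1 to 6 with a library left out and 10 under scaling by library totals.

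Single lower genes belonged to several programmes. KRT15, a keratin of basal epithelium, was at 45.9, 46.7, 39.1 and 45.3 CPM with irinotecan and 29.8, 29.3, 26.4 and 30.4 CPM with the combination (chr17:41513743-41522529, -0.61 ± 0.08, adjusted p = 6.26e-06). Beside it, the summed level of 8 epithelial markers was 591.5 to 651.5 CPM per library with irinotecan and 513 to 587 with the combination (exact permutation p = 0.0286, the smallest possible, 0.124 adjusted over 13 values). KRT8 and KRT18 made up most of that sum, 4 of the 8 markers were under 0.5 CPM, EPCAM and CDH1 were near 0, and their part in the result was not tested. UBA7, which activates the antiviral modifier ISG15, was at 14.0, 14.2, 14.3 and 17.0 CPM without the statin and 11.1, 9.42, 11.1 and 10.1 CPM with it (chr3:49805207-49813946, -0.51 ± 0.08, adjusted p = 0.00015). KRT15 and UBA7 were lower in all 4 combination libraries than in any irinotecan library. Of 39 interferon response genes 3 fell, a share of 7.69% beside 1.5% of all genes, and the list's median was -0.13. The count was 1 without combination replicate 3 and 6 without irinotecan replicate 2. The antiviral GTPase MX1 had overlapping groups, at 18.8, 16.9, 22.5 and 21.8 CPM without the statin and 15.2, 14.1, 13.8 and 17.6 CPM with it (-0.40 ± 0.09, adjusted p = 0.00849), and lost its call without combination replicate 3. SOX2, a stem cell factor of glioma, was at 336, 320.4, 348 and 335 CPM without the statin and 297, 286, 309 and 297 CPM with it (-0.17 ± 0.04, adjusted p = 0.00245), with all combination libraries lower. Among the lowest fold changes were the centrosome gene NINL (-0.70 ± 0.13, 5.90, 6.01, 5.52 and 6.21 against 3.08, 3.90, 4.07 and 3.42 CPM) and the mitochondrial carrier SLC25A48 (-0.75 ± 0.16), both at a few CPM.

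Groups tied to irinotecan's own action are set beside the shares of all genes called, 4.45% higher and 1.5% lower. TOP1, the drug's target, was at 185, 193, 193 and 191 CPM with irinotecan and 201, 198, 203 and 188 CPM with the combination, with overlapping groups (0.05 ± 0.04, adjusted p = 0.512). Of 19 genes of topoisomerases, repair of trapped topoisomerase and irinotecan handling, 0 were called by edgeR, DESeq2 called 1 higher and 1 lower, and 2 higher and 1 lower had an unadjusted p under 0.05. CDKN1A, the p53 target that encodes the cell cycle inhibitor p21, rose from 78.8, 77.8, 77.6 and 76.3 to 95.4, 84.1, 88.0 and 87.9 CPM (0.19 ± 0.04, adjusted p = 0.00267). With it, 5 of 29 p53 targets (17.2%) were called higher by edgeR and 0 lower, and the list's median was -0.00467. DESeq2 called 2 of them lower, as did edgeR without combination replicate 4, scaling by library totals gave 3 lower, and 6 were lower at an unadjusted p under 0.05. Of 39 genes of DNA damage signalling and repair none rose and 1 fell (2.56%), RAD51AP1 (-0.18 ± 0.05). Its call was lost without irinotecan replicate 1 or 3 or combination replicate 2, 3 or 4. The 13 mitochondrially encoded mRNAs all had negative values (median -0.28) and 0 were called by edgeR or DESeq2 (0 had an unadjusted p under 0.05). The mitochondrial share of counts given above moved the same way.

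Calls in the other lists were few in number, and the shares of all genes were 4.45% higher and 1.5% lower. Called higher were 12.5% of mesenchymal, 11.1% of proneural, 10.3% of BCL2 family, 7.41% of lysosome and 3.03% of respiratory chain genes. Called lower were 12.5% of HLA, 11.1% of proneural, 4.17% of mesenchymal, 3.7% of lysosome, 3.45% of BCL2 family and 3.03% of respiratory chain genes. Of 27 lysosome and autophagy genes 2 rose, the autophagy proteins WIPI1 (0.47 ± 0.09) and MAP1LC3B (0.30 ± 0.04), and 1 fell (0 without irinotecan replicate 2 or 4 or combination replicate 1 or 2). BCL2 family and cell death genes rose in 3 and fell in 1 of 29, the fallen one being BCL2L11, the killer protein BIM (-0.22 ± 0.05), and the death receptor TNFRSF10B rose by 0.18 ± 0.04. Without irinotecan replicate 1 only 1 of the 29 was called higher, and without irinotecan replicate 4 there were 2 called lower. Proneural and glioma stem cell factors rose in 2 and fell in 2 of 18, with the lipid carrier FABP7 higher (0.15 ± 0.04) and the RNA-binding MSI1 lower (-0.25 ± 0.06) beside SOX2. With 1 library left out, 1 or 2 of the 18 were called higher and 1 to 3 lower. Mesenchymal glioblastoma genes rose in 3 and fell in 1 of 24, the latter being STAT3 (-0.14 ± 0.03). Axon guidance genes were called higher in 2 of 35, a share of 5.71% beside 4.45% of all genes, in 1 without irinotecan replicate 1 or combination replicate 1 and in 0 without irinotecan replicate 2. HLA class I and antigen presentation genes fell in 2 of 16. Nuclear genes of the respiratory chain rose in 1 and fell in 1 of 33, and 0 were lower without irinotecan replicate 1, 2 or 3 or any 1 combination library. Of 37 cytosolic ribosomal protein genes 0 were called by edgeR or DESeq2, and 1 was higher at an unadjusted p under 0.05. Calls were lost without irinotecan replicate 1 or combination replicate 2 for MSI1, without irinotecan replicate 3 or combination replicate 2 or 4 for STAT3, and without irinotecan replicate 3 for BCL2L11. The number of HLA genes called fell to 0 without irinotecan replicate 3 or combination replicate 1 or 3.

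**Figure D4:**
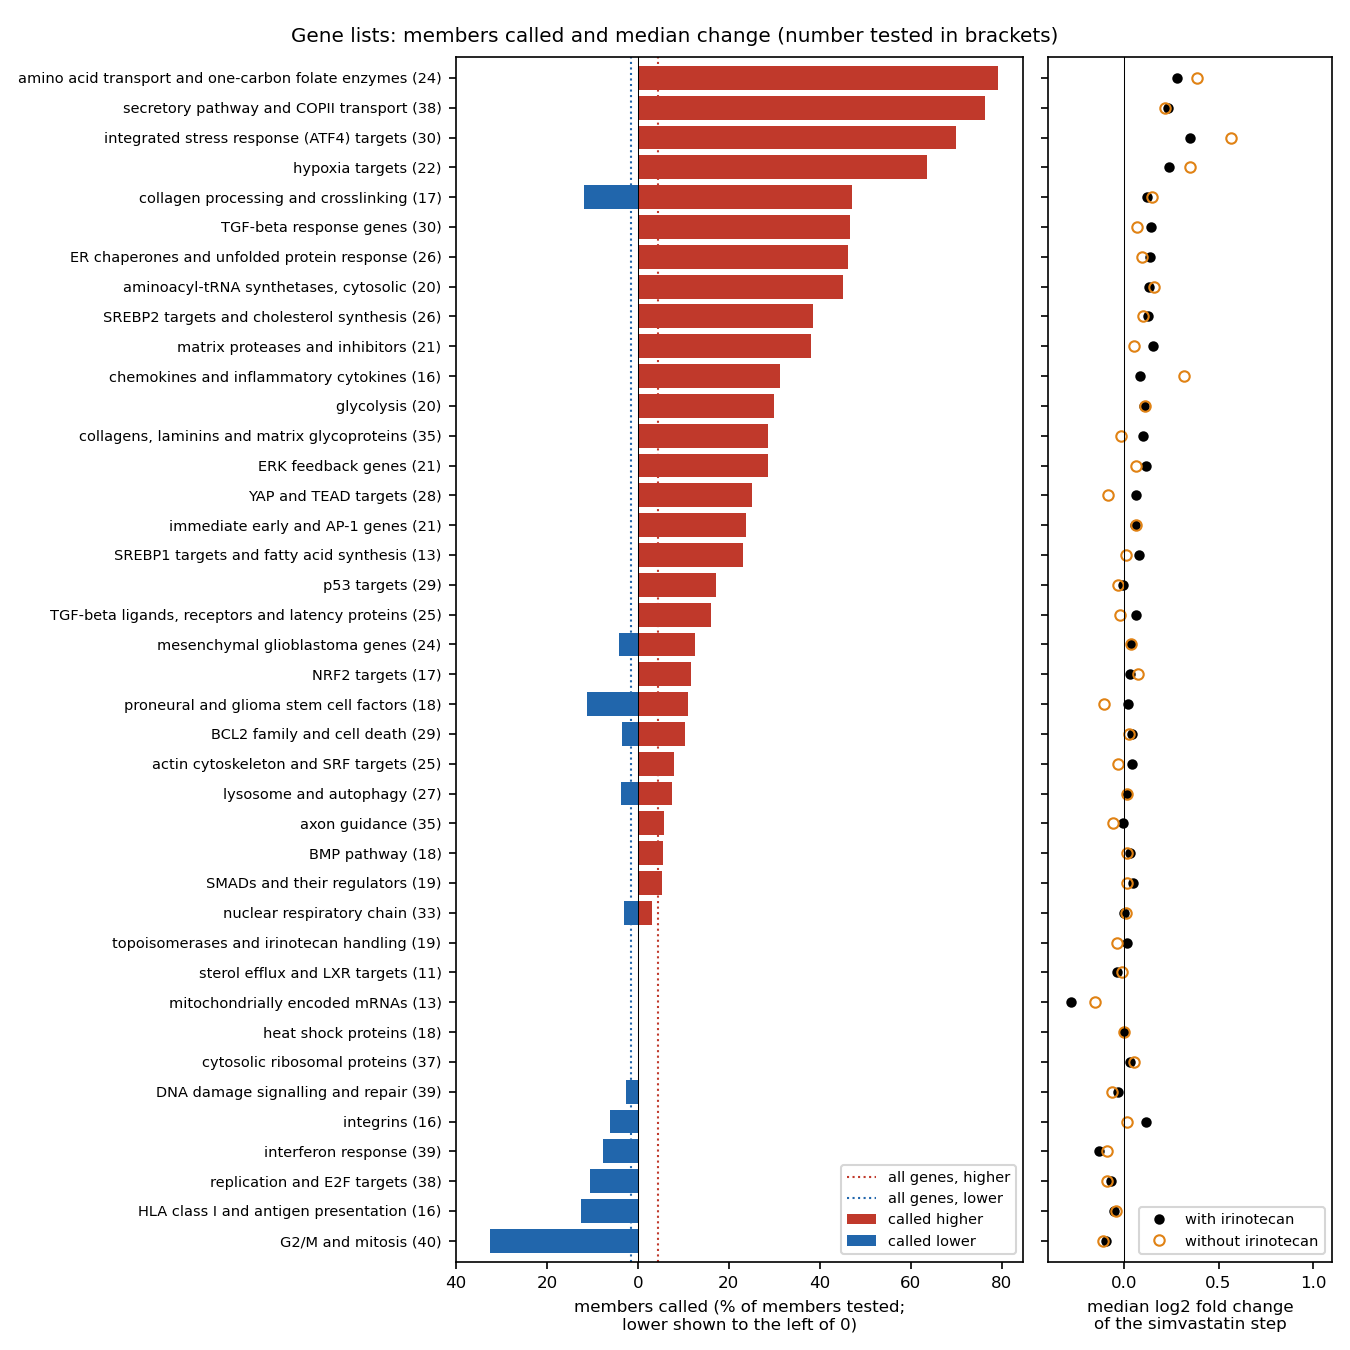
Share of tested members of gene lists that were called higher (red, right of 0) or lower (blue, left of 0), in percent, with dotted lines for all genes, and the lists' median log2 fold change of the simvastatin step with irinotecan (black) and without it (open orange). Amino acid, secretory, ATF4 and hypoxia lists have the longest red bars and G2/M the longest blue bar.

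The same statin dose without irinotecan, simvastatin against DMSO, shares no library with this comparison. It gave 647 higher genes (3.89%) and 352 lower (2.11%). Called in both steps were 517 genes, 422 higher and 95 lower and none in opposite directions, which is 52.3% of the calls with irinotecan and 51.8% of those without. Of the higher genes with irinotecan 57.0% were also called higher without it, and of the lower genes 38.2% were also called lower. Across all 16647 genes 63.7% had the same sign in both steps, with a Pearson r of 0.27 across genes, which are not independent replicates. The genes called higher by simvastatin alone had a median log2 fold change of 0.27 without irinotecan and 0.22 with it, and those called lower had -0.20 and -0.11. The genes called higher with irinotecan had 0.23 with it and 0.19 without it, and those called lower had -0.22 and -0.15, so each set had the larger median in the step that chose it. Medians of lists in the 2 steps are given side by side, with no test of their difference. With and without irinotecan they were 0.35 and 0.57 for ATF4 targets, 0.23 and 0.22 for the secretory pathway, 0.14 and 0.07 for TGF-β response genes, and 0.06 and -0.09 for YAP and TEAD targets. Members called higher without irinotecan numbered 26 of 30 ATF4 targets, 26 of 38 secretory genes, 4 of 30 TGF-β response genes and 2 of 28 YAP and TEAD targets.

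The difference between the 2 steps was tested gene by gene as an interaction, and 2 of 16647 genes were called (0.012%). CXCL8 rose more by simvastatin without irinotecan, from 1.05 ± 0.311 to 34.2 ± 8.14 CPM, than with it, from 4.46 ± 0.854 to 26.0 ± 1.88 CPM (SD, n = 4), an interaction of -2.48 ± 0.33 log2 units (adjusted p = 0.037). DDIT4 rose from 53.6 ± 4.96 to 90.5 ± 2.84 CPM without irinotecan and from 42.6 ± 2.78 to 52.8 ± 2.68 CPM with it (-0.44 ± 0.08, adjusted p = 0.037). CXCL8 lost this call without any one of DMSO replicates 2, 3 and 4, simvastatin replicate 1, irinotecan replicates 1, 2 and 4 and each combination library, with adjusted p up to 0.178. DDIT4 lost it without DMSO replicates 2 or 4, simvastatin replicates 1 or 4, irinotecan replicates 1, 3 or 4 or any combination library, also with adjusted p up to 0.178. DESeq2 called 5 genes, and 996 had an unadjusted p under 0.05 in edgeR. A fit with the replicate number as a block, described below, called many more.

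At an unadjusted p under 0.05 the interaction was mostly negative in some lists and mostly positive in others. Among all genes 542 were positive at that level (3.26%), meaning a larger or more positive step with irinotecan, and 454 were negative (2.73%). ATF4 targets had 16 of 30, all negative, and the amino acid and folate list had 9 of 24, all negative. INHBE (-1.03 ± 0.22, adjusted p = 0.147) and GDF15 (-0.71 ± 0.14, adjusted p = 0.145) did not pass. In the other direction, TGF-β response genes had 13 positive and 1 negative of 30, collagens and matrix glycoproteins 14 positive of 35 and YAP and TEAD targets 11 positive of 28. THBS1 went from 192 to 187 CPM without irinotecan and from 211 to 255 with it (0.31 ± 0.06, adjusted p = 0.095). CCN2 went from 662 to 673 and from 481 to 577 CPM (0.24 ± 0.06, adjusted p = 0.421). DUSP5 had log2 fold changes of 0.37 with irinotecan and 0.07 without, and UBA7 -0.51 and -0.06. THBS1, CCN2, DUSP5 and UBA7 were not shown to differ between the steps in the fit to all 16 libraries.

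**Figure D5:**
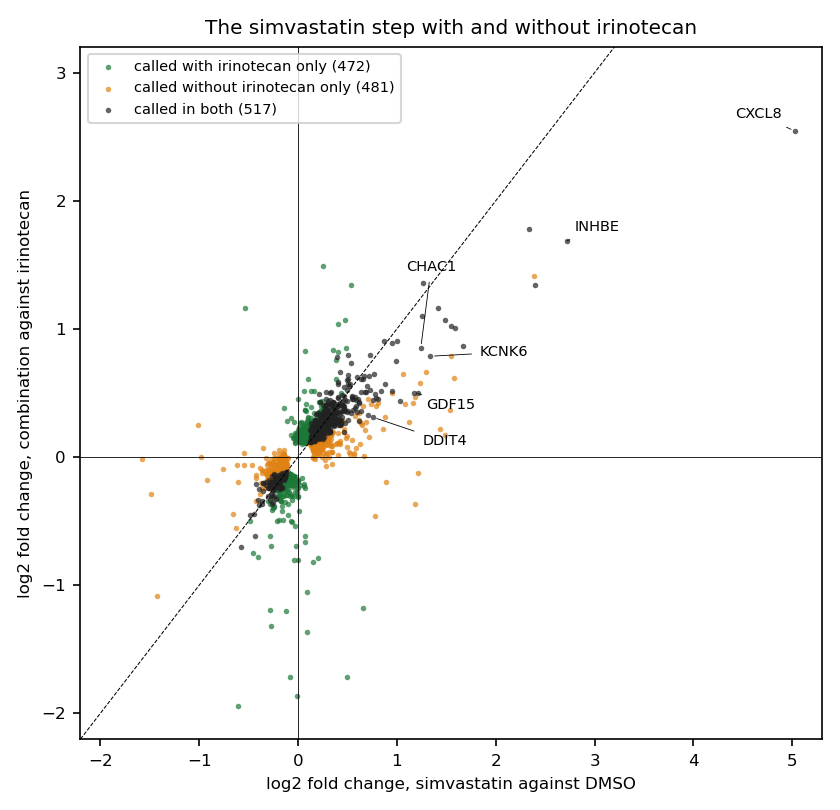
Log2 fold change of simvastatin against DMSO (horizontal axis) and of the combination against irinotecan (vertical axis) for genes called in either, 1 point per gene, with a dashed line of equal change. The 517 genes called in both (black) lie in the upper right and lower left, and CXCL8, INHBE and DDIT4 lie below the dashed line.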

How the data were processed

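The authors deposited 1 table of counts, whole numbers per Ensembl gene for 58243 genes and 16 libraries, not normalised. Per the submitters' processing notes, FastQC, STAR 2.7.1, DESeq2 and GRCh38 were used. How reads were counted, with which strand setting and annotation release, is not stated in the labels, so counts of overlapping genes and of close paralogs are uncertain. Of the IDs, 57980 were found in GENCODE 29 (GRCh38), the source of symbols and gene coordinates. Promoters came from RefSeq (GRCh38.p14).

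Groups came from the sample titles. With edgeR 4.0.16 (limma 3.58.1, R 4.3.3), low genes were removed by filterByExpr (minimum count 10, minimum total count 15), libraries were scaled by TMM factors, and robust quasi-likelihood models with 1 term per group were fitted to all 16 libraries, so that the 4 groups shared 1 estimate of spread. The contrasts were the combination against irinotecan, simvastatin against DMSO and their difference, the interaction. P-values were adjusted over 16647 genes by the Benjamini-Hochberg method, genes under 0.05 were called, and standard errors come from the log2 fold change and its F statistic. CPM of single genes used TMM-scaled library sizes, and marker sums used library totals. The common biological coefficient of variation was 5.25%. Single values were compared by exact permutation tests. In simulated data with no other group difference, 200 of 16647 genes were changed, none of them among the lowest expressed. The test of the combination against irinotecan recovered 58%, 84%, 98% and 100% of changes of 0.3, 0.5, 1 and 2 log2 units, with 5.56% of calls false. The interaction test recovered 36%, 64%, 94% and 98%, with 8.75% of calls false. Recovery among the lowest expressed genes was not tested.

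The 41 gene lists hold 1067 entries, of which 1063 matched and 1019 were tested (944 distinct genes). The comparison and the lists were chosen with earlier results of these data known. Named genes were the 12 called genes that rose most and the 12 that fell most (mean log2 CPM at least 1, no clone names), up to 4 called members per list by smallest p, 16 genes of the pathways, and genes called in the interaction. Results of some genes that the rule takes are not reported here. The alternatives comprised median-ratio size factors, DESeq2 1.42.0, library sizes alone, no filter, a filter of 1 CPM in 4 libraries, the compared groups alone, the replicate number as a block, and leaving out each library. All libraries were used. Figures were made in matplotlib 3.10.9 under Python 3.11.15.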

Additional observations from a re-analysis of the deposited data

Results flagged for a closer look

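Groups of 4 libraries were checked for the named genes and for library measures such as total counts. In 18 of 274 groups (6.57%), all of them for named genes, 1 library stood apart from the other 3. Its gap to the nearest library was above Dixon's 95% limit as a share of the group's range. Chance gives about 1 in 20 groups (5%). In the irinotecan group, HERPUD1 was low in replicate 3 (64.5 CPM), CDC25B low in replicate 3 (177.2 CPM), ELOVL5 high in replicate 4 (555.6 CPM), MCM6 high in replicate 4 (132.7 CPM), FBF1 high in replicate 1 (8.65 CPM) and UBA7 high in replicate 4 (17.0 CPM). In the combination group, replicate 3 was low for IL11 (23.0 CPM) and high for CYCS (434.4 CPM), NRAS (207.0 CPM) and TGFBR2 (111.4 CPM). Combination replicate 4 was high for HMGCS1 (112.7 CPM), ATF3 (36.9 CPM) and NOXA1 (5.25 CPM) and low for TGFBR1 (56.7 CPM) and PARP9 (53.4 CPM). Combination replicate 1 was low for FOSL1 (88.7 CPM) and high for TGFA (150.8 CPM), and replicate 2 was high for COX5B (78.0 CPM).

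The simvastatin step differed between cells with and without irinotecan for 2 genes in edgeR's test of the interaction. CXCL8 had -2.48 log2 units and DDIT4 -0.44, both with an adjusted p of 0.037. In both genes all libraries with simvastatin were above those without it in the DMSO and in the irinotecan background.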

How the results depend on the processing

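The 989 calls of the combination against irinotecan were 945 to 1303 under DESeq2, median-ratio size factors, library sizes alone, both other filters and the compared groups alone. The 740 higher calls were 594 to 865 under the same settings. The number of lower calls, 249, was 455 with no filter on low counts and 469 with the compared groups alone. The 2 interaction calls were 5 with DESeq2 and 14 with no filter. With 1 library left out, calls ranged from 674 to 1113 (548 to 825 higher and 126 to 341 lower), calls of simvastatin against DMSO from 664 to 1224, shared calls from 406 to 522 and interaction calls from 0 to 9. The mitochondrial difference ranged from -0.919 percentage points (without irinotecan replicate 3, exact permutation p = 0.0286) to -0.506. Among the 133 named genes no call was lost under DESeq2, median-ratio size factors or the compared groups alone, 5 were lost with library sizes alone, 10 with no filter, 2 with the 1 CPM filter and 15 to 24 without 1 of the irinotecan or combination libraries. Genes near 0 turned sign. The log2 fold change of TGFBR1 was -0.0116 with library sizes alone and -0.00944 with no filter, and leaving out single libraries gave -0.0284 (irinotecan replicate 2 left out) to 0.0401, with -0.00156 when combination replicate 1 was left out. The log2 fold change of TGFB2 was -0.0900 to 0.0468 (without irinotecan replicate 4). The log2 fold change of MKI67 was -0.108 to 0.0252 (without irinotecan replicate 3), with 0.00506 without irinotecan replicate 4 and 0.0138 without combination replicate 4. The causes of these changes were not tested.

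A fit with a replicate block used the 12 numbered libraries. It called 2016 genes (1278 higher, 738 lower) and 190 in the interaction. The same 12 libraries with no replicate block gave 707 calls, 163 of them lower, with 513 for simvastatin against DMSO, 293 shared and 1 in the interaction. The log2 fold change of TGFB2 was 0.0494 with the block and 0.0503 without it, and the log2 fold change of MKI67 was 0.0631 and 0.0524. TGFBR2 passed with the block (0.12). Deviations of same-numbered irinotecan and combination libraries correlated at -0.0134, -0.0646 and 0.0500, and 2 of 6 libraries correlated best with their own number. The numbers were therefore not taken to pair these groups, the limit taken here being over 0.1 in every pair. As a hint from the data and not the design, same-numbered pairs exceeded every other pair for DMSO and simvastatin (0.0391 to 0.2 against -0.16 to 0.0161). The same held for DMSO and the combination (0.0683 to 0.124 against at most 0.0405) and simvastatin and the combination (0.0208 to 0.0652 against at most 0.0108). Ranges overlapped for DMSO and irinotecan (0.0138 to 0.0936 against -0.082 to 0.0379). They also overlapped for simvastatin and irinotecan (0.00379 to 0.127 against -0.0868 to 0.0526). All same-numbered values outside the irinotecan and combination pair were positive. The number of interaction calls depended on the block, at 190 with it and 1 without it in the same 12 libraries.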

Other observations

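Of 13390 protein-coding genes tested, 724 were called higher with the combination and 230 lower. Among long non-coding RNAs, of 762 lincRNAs 6 were higher and 2 lower, and of 949 antisense genes 4 were higher and 6 lower, where the unstated strand setting leaves antisense counts uncertain. The higher genes had a median of mean log2 CPM of 6.22, against 5.35 for the lower genes and 4.11 for all genes. Their median genomic span was 38.5 kb, against 26.5 kb for the lower genes and 27.0 kb for all. Both gaps are descriptions with no test.

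Among called genes with at least a 2-fold change, chosen here after their values were seen, the T cell costimulator gene TNFRSF9 had a log2 fold change of 1.35 ± 0.21 at a low level (adjusted p = 4.35e-05), and the natriuretic peptide gene NPPB one of 1.49 ± 0.35 (adjusted p = 0.00696).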
